A study of Mus musculus with 9 samples.

Results

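The microRNA genes outside the Sfmbt2 families were compared between follicular B cells that differed in the heavy chain allele. A gene belonged to this set when a probe set carried 1 annotated symbol that starts with Mir and a digit or with Mirlet, when the symbol was not one of the Mir297, Mir466, Mir467 or Mir669 genes (the large families inside the Sfmbt2 gene), and when its log2 signal exceeded the array's own median over probe sets on 3 or more of the 9 arrays. The genes were thus chosen by their log2 signal levels. The rule gave 150 of the 459 microRNA genes of this kind on the array (32.7%), where 12170 of all 22180 genes (54.9%) passed the same filter. The brightest probe set stood for a gene, and 2 of the 150 had more than 1. The rule used the level of the signal and no comparison of genotypes, but it named Mir505 and Mir103-2, which were known from earlier results of these data, so their differences are not independent evidence.

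The 9 arrays form groups of 3, and all hold splenic follicular B cells, which are naive B cells that circulate through the spleen's follicles, sorted from mice aged 6 to 12 weeks. In the first group, written ε/ε here, both Igh alleles were the epsilon allele, named after the constant region of IgE. In the second, written γ1/γ1, both were the gamma1 allele, named after the constant region of IgG1. The third carried the wild-type Igh locus. The genotype labels of all 3 groups also hold VJk5 without explaining it, and the construction of the alleles is not described there. Replicates are called independent but not separate animals, and the p-values therefore cover the spread between these samples, which may be technical.

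MicroRNAs are cut from longer primary transcripts, first by Drosha with Dgcr8 in the nucleus and then by Dicer in the cytoplasm, and the mature strand is loaded onto an Argonaute protein. Bases 2 to 8 of the mature strand, the seed, pair with sites in messenger RNAs, which are then repressed. Many microRNA genes lie inside a host gene and share its transcript, and several lie in clusters on 1 primary transcript. In B cells the miR-17 cluster, miR-150, miR-142, miR-155 and miR-15a with miR-16 have described roles in development, survival and activation. A probe set named after a microRNA gene reads amplified total RNA, so signal from the primary transcript, the hairpin and the mature strand cannot be told apart here, and a level of 1 probe set cannot be set against that of another.

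The mature sequences below belong to genes that passed a test described further on, or to genes of the same seed set beside them; capitals mark the seed. They are RefSeq mature sequences of GRCm38.p6, matched by gene identifier for 138 of the 150 genes. The first 5 are from the 4 genes with the smallest adjusted p among those with a sequence, and Mir449b and Mir5112 are named only.
miR-505-3p: cGUCAACAcuugcugguuuucu
miR-210-3p: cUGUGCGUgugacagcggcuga
miR-149-5p: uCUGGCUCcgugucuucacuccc
miR-149-3p: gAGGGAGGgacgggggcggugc
miR-3093-3p: uGUGGACAccgugggagguugg

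The next sequences are grouped by a shared seed. Mir15a and Mir16-2 share AGCAGCA, Mir103-2 and Mir107 share GCAGCAU, Mir17 and Mir20a share AAAGUGC, and Mirlet7a-1, Mir98 and Mirlet7g share GAGGUAG.
miR-15a-5p: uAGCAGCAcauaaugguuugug
miR-16-5p: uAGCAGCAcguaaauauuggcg
miR-103-3p: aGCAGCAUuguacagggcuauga
miR-107-3p: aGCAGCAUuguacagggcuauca
miR-17-5p: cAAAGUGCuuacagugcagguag
miR-20a-5p: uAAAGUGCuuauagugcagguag
let-7a-5p: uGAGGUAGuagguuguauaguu
miR-98-5p: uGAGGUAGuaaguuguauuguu
let-7g-5p: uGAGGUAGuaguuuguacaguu

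The level of the signal chose the genes, so it is given as a description. Over the 9 arrays the mean log2 signal of the 150 genes ran between 3.24 and 10.62 with a median of 4.52, and 12 genes had a mean of at least 7. The array medians that the rule used lay between 3.53 and 3.69. Of the 150 genes, 78 lay above the median on all 9 arrays. The 12 genes just inside the rule, above the median on exactly 3 arrays, had means between 3.24 and 3.64, and the 25 microRNA genes just outside it, above the median on 2 arrays, had means between 2.76 and 3.57. A gene that entered only through the group in which it is bright had to differ between groups, so counts over the 150 genes are descriptions, and counts over the 78 genes are given beside them. The same deposited value stood on at least 2 arrays for 36 members of this set of 150 and for 6315 of the 12170 genes tested (51.9%), and the part of these ties in the results was not tested.

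Across the 150 genes, Pearson's r between arrays was 0.830 to 0.897 within ε/ε, 0.888 to 0.928 within γ1/γ1 and 0.945 to 0.950 within wild-type. Between genotypes it was 0.726 to 0.821 for ε/ε with γ1/γ1, 0.727 to 0.846 for ε/ε with wild-type and 0.883 to 0.956 for γ1/γ1 with wild-type. These are descriptions across genes, which are not independent replicates. The 9 follicular B cell markers were above the median on at least 3 arrays, with a mean log2 signal between 8.62 and 9.29 on every array. Of 14 macrophage markers 11 were above it, and their mean log2 signal was 6.56, 4.56 and 4.14 on the ε/ε arrays, 3.68 to 3.87 on the γ1/γ1 arrays and 3.71 to 3.80 on the wild-type arrays, while 0 of 7 T cell markers passed. Neither Ighe nor Ighg1 had a probe set of its own symbol, so the epsilon and gamma1 alleles could not be checked on the arrays through their own constant regions. Ighm, the constant region of IgM, had log2 signals of 11.03, 10.91 and 11.01 on the ε/ε arrays, 8.80, 9.62 and 9.81 on the γ1/γ1 arrays and 11.27, 11.56 and 11.27 on the wild-type arrays. It was thus low in γ1/γ1 and close to wild-type in ε/ε. The log2 signal of Xist, the RNA that coats the inactive X chromosome, was 5.25 on ε/ε replicate 1 and 4.53 on γ1/γ1 replicate 1, against 10.37 to 10.79 on the other 7 arrays. The Y-linked Eif2s3y was high on the same arrays, at 7.40 and 7.99, and stood at 5.40 on ε/ε replicate 2, against 2.75 to 3.64 on the other 6; ε/ε replicate 2 is kept where the 2 arrays of low Xist are left out. The part of the macrophage markers and of these arrays in the results below was not tested beyond the fits that left out arrays.

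In ε/ε cells 29 of the 150 microRNA genes differed from wild-type cells, 10 with a higher and 19 with a lower signal (19.3%), where 6.34% of the 12170 genes tested passed. The test was limma on all 9 arrays with Benjamini-Hochberg adjustment across the 12170 genes, and an adjusted p under 0.05 counted as passing. Of all genes tested 2.33% passed as higher and 4.02% as lower; this split turned to 410 higher and 300 lower under quantile normalization, against 283 and 489 in the deposited scaling, while the microRNA genes gave 12 higher and 16 lower. The microRNA split turned to 15 higher and 11 lower without ε/ε replicate 2, and it was 5 higher and 4 lower without wild-type replicate 3. Among the 78 genes above the median on all 9 arrays, 15 passed, 7 higher and 8 lower (19.2%), against 642 of 9293 such genes (6.91%), and a filter on the mean over all 9 arrays gave 24 of 127 (18.9%) against 757 of 11526 (6.57%). At an unadjusted p under 0.05 there were 63 microRNA genes (42.0%) and 24.8% of all genes. The median log2 difference of the 150 genes was −0.12, and that of all genes tested was −0.01. In each of the 29 the 3 ε/ε arrays lay wholly above or wholly below the 3 wild-type arrays. The share of all genes tested that lay apart in this way was not computed, so the separation cannot be set against it. Genes picked by a small p with 3 arrays in each group mostly separate in this way, so it adds no support. Of the Sfmbt2 family genes 11 of 13 passed in the same comparison, and of small nucleolar RNA genes 6 of 61 (9.84%).

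In γ1/γ1 cells 0 of the 150 microRNA genes passed against wild-type in limma, where 0.0411% of all genes tested (5 genes) did, 0.0247% as higher and 0.0164% as lower. Of genes above the median on all 9 arrays 0.043% passed and of genes kept by their mean 0.0434%, with 0 microRNA genes in either set. At an unadjusted p under 0.05 there were 10 microRNA genes (6.67%) and 6.82% of all genes. Their log2 differences ran between −0.94 and 1.17 with a median of 0.03. The ε/ε arrays set against the γ1/γ1 arrays gave 19 microRNA genes that passed, 4 higher and 15 lower (12.7%), where 2.66% of all genes passed, 1.02% as higher and 1.64% as lower. Among the 78 genes above the median on all 9 arrays, 8 passed, 2 higher and 6 lower, against 2.54% of such genes, and the filter on the mean gave 15 of 127 against 2.39%. At an unadjusted p under 0.05 there were 59 microRNA genes (39.3%) and 19.9% of all genes. Both comparisons with ε/ε use the same 3 ε/ε arrays, so the 16 genes that passed in both (55.2% of the 29 and 84.2% of the 19) are not 2 independent observations.

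**Figure D1:**
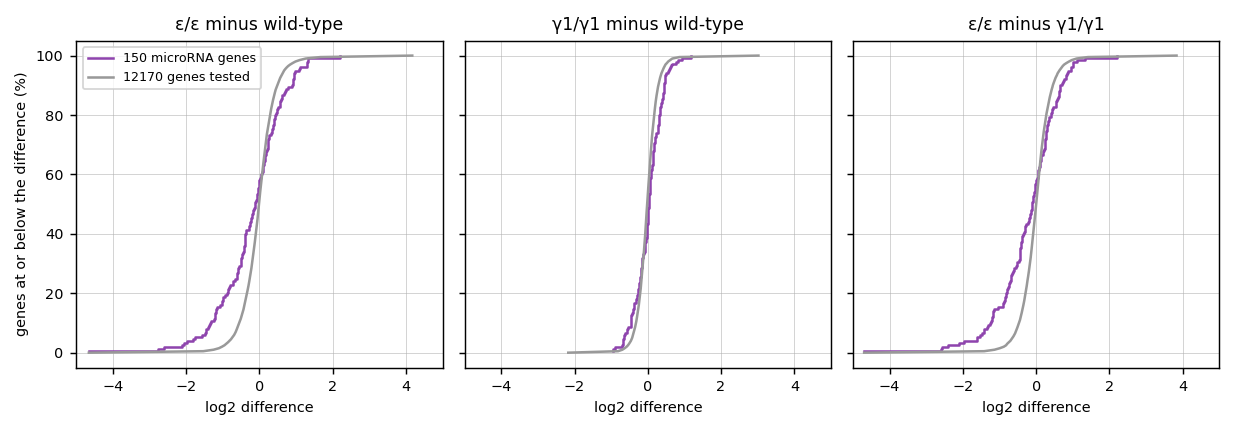
Share of genes (vertical axis, percent) at or below a given log2 difference (horizontal axis) for the 150 microRNA genes and for the 12170 genes tested, with 1 panel for each comparison. For ε/ε minus wild-type the microRNA differences run between −4.66 and 2.21 and those of all genes tested between −4.66 and 4.17; for γ1/γ1 minus wild-type they run between −0.94 and 1.17 for the microRNA genes and between −2.17 and 3.02 for all genes tested.

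Mir505, on the X chromosome, was lower in ε/ε and had the smallest adjusted p of the 150 genes. Its log2 signal was 2.24, 3.35 and 3.11 on the ε/ε arrays, 7.51, 7.88 and 7.39 on the γ1/γ1 arrays and 7.32, 7.70 and 7.65 on the wild-type arrays. The ε/ε arrays all lay below the array medians, and the other 6 arrays, through which Mir505 passed the filter, lay close together above 7. Where a group lies at or below the medians no fold is given, and the log2 difference is a fitted value that goes with its adjusted p and does not measure the size of the change. The fitted log2 difference was −4.66 ± 0.27 (SE) from wild-type (adjusted p = 5.07e-05, limma) and −4.70 ± 0.27 (SE) from γ1/γ1 (adjusted p = 6.92e-05, limma), and it passed without any 1 array. Mir505 was chosen through the groups in which it is bright and was known from earlier results, so its tests are a description. Xist was low on 1 ε/ε array and on 1 γ1/γ1 array, and Mir505 followed the genotype on both.

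Mir210, the microRNA that hypoxia induces through HIF-1 and that limits B cell activation in mice, had log2 signals of 5.41, 5.71 and 5.92 on the ε/ε arrays, 8.06, 7.47 and 7.41 on the γ1/γ1 arrays and 8.04, 7.49 and 7.66 on the wild-type arrays. The ε/ε arrays did not overlap those of the other genotypes. Mir210 fell by 2.05 ± 0.22 (SE) from wild-type, a signal 4.13-fold lower (adjusted p = 0.00156, limma), and by 1.97 ± 0.22 (SE) from γ1/γ1 (adjusted p = 0.00360, limma). Mir149, whose interval lies in Gpc1, a cell surface proteoglycan, stood at 3.79, 3.47 and 3.42 in ε/ε, 5.04, 5.13 and 4.96 in γ1/γ1 and 4.93, 5.02 and 4.75 in wild-type. Its ε/ε mean lay among the array medians, so no fold is given for a log2 difference of −1.34 ± 0.15 (SE) from wild-type (adjusted p = 0.00166, limma) and of −1.48 ± 0.15 (SE) from γ1/γ1 (adjusted p = 0.00224, limma). Mir210 and Mir149 passed both comparisons without any 1 array.

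MicroRNAs of the miR-15 and miR-16 family repress Bcl2, and human counterparts are lost in chronic lymphocytic leukaemia. Mir15a, at chromosome 14 on the minus strand within the long non-coding gene Dleu2, had log2 signals of 4.29, 3.83 and 4.03 on the ε/ε arrays, 5.76, 5.87 and 6.86 on the γ1/γ1 arrays and 6.11, 5.76 and 6.63 on the wild-type arrays. Only ε/ε stood apart, below the other 6 arrays, while the γ1/γ1 and wild-type arrays overlapped. Mir15a fell by 2.12 ± 0.31 (SE) from wild-type, a signal 4.33-fold lower (adjusted p = 0.00563, limma), and by 2.11 ± 0.31 (SE) from γ1/γ1 (adjusted p = 0.00879, limma), and it passed both without any 1 array. Mir16-2, on chromosome 3 within the interval of Smc4, a condensin subunit, stood at 3.50, 3.07 and 3.65 in ε/ε, 4.03, 4.48 and 4.41 in γ1/γ1 and 3.82, 3.77 and 3.92 in wild-type. Its difference of −0.90 from γ1/γ1 passed (adjusted p = 0.0344, limma) in 2 of the 9 fits without 1 array and reached an adjusted p of 0.0995 in the others, and its difference of −0.43 from wild-type did not pass (adjusted p = 0.183, limma). The call was also lost with the replicate number as a block, without the 2 arrays of low Xist and in a fit of the 6 arrays compared. The ε/ε arrays of Mir16-2 lay among or below the array medians, so its differences do not measure the size of a change. Mir16-1, 147 bases from Mir15a, and Mir15b, 130 bases from Mir16-2, did not pass the filter on low signals.

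Mir103-2 and Mir107, near-identical microRNAs that lie in pantothenate kinase genes, gave unlike values. Mir103-2 had log2 signals of 6.47, 7.25 and 4.94 on the ε/ε arrays, 8.60, 8.93 and 8.80 on the γ1/γ1 arrays and 8.55, 9.17 and 9.26 on the wild-type arrays. All ε/ε arrays lay below the other 6 and were spread over more than 2 log2 units. Mir103-2 fell by 2.78 ± 0.47 (SE) from wild-type, a signal 6.87-fold lower (adjusted p = 0.0108, limma), and by 2.56 ± 0.47 (SE) from γ1/γ1 (adjusted p = 0.0222, limma). The first call was lost in fits that left out wild-type replicate 2 or 3, with an adjusted p up to 0.0557, and the second in fits that left out ε/ε replicate 1 or any 1 γ1/γ1 array (up to 0.0753). The second was also lost without the 2 arrays of low Xist and in a fit of the 6 arrays compared. Mir107, on chromosome 19 in Pank1, stood at 3.94, 5.42 and 4.86 in ε/ε, 3.97, 4.65 and 4.69 in γ1/γ1 and 4.81, 5.56 and 5.62 in wild-type, with overlapping groups and a log2 difference of −0.59 from wild-type that did not pass (adjusted p = 0.359, limma). A test of the difference between the 2 genes was not made.

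Mir17, the first gene of a cluster known for promoting B cell development and repressing Bcl2l11, had log2 signals of 4.43, 3.48 and 4.76 on the ε/ε arrays, 5.39, 5.28 and 5.65 on the γ1/γ1 arrays and 5.39, 5.67 and 6.00 on the wild-type arrays. The ε/ε arrays lay below the other 6. Mir17 fell by 1.46 ± 0.30 (SE) from wild-type, a signal 2.76-fold lower (adjusted p = 0.0210, limma), a call lost in fits that left out wild-type replicate 2 or 3, where adjusted p reached 0.0870. Mir17 also lost this call without the 2 arrays of low Xist and in a fit of the 6 arrays compared. Its difference of −1.22 from γ1/γ1 did not pass (adjusted p = 0.0587, limma). Mir18, 180 bases away on the same strand, stood at 5.43, 3.61 and 4.79 in ε/ε, 4.79, 4.36 and 4.79 in γ1/γ1 and 4.79, 4.81 and 5.33 in wild-type, and Mir20a, 486 bases away, at 2.96, 2.96 and 3.88 in ε/ε, 2.87, 2.59 and 3.69 in γ1/γ1 and 3.43, 2.85 and 4.08 in wild-type. Neither passed against wild-type, with log2 differences of −0.37 for Mir18 (adjusted p = 0.589, limma) and −0.19 for Mir20a (adjusted p = 0.804, limma), and their groups overlapped. Mir19a, in the same cluster, did not pass the filter.

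Of the let-7 genes, which repress Ras and Hmga2 transcripts and are held down by Lin28, Mirlet7a-1 was higher in ε/ε. Its log2 signal was 4.72, 4.80 and 5.25 on the ε/ε arrays, 3.57, 3.44 and 3.75 on the γ1/γ1 arrays and 3.82, 4.41 and 3.91 on the wild-type arrays, so the ε/ε arrays lay above the other 6. Mirlet7a-1 rose by 0.88 ± 0.20 (SE) from wild-type, a signal 1.84-fold higher (adjusted p = 0.0310, limma), a call lost in fits that left out ε/ε replicate 3, wild-type replicate 1 or wild-type replicate 3, where adjusted p reached 0.113. Mirlet7a-1 also lost this call without the 2 arrays of low Xist and in a fit of the 6 arrays compared. Against γ1/γ1 the rise of 1.34 ± 0.20 (SE) passed (adjusted p = 0.00990, limma), also without any 1 array, but not without the 2 arrays of low Xist (adjusted p = 0.0607). Mir98 had a log2 difference of −1.03 from wild-type (adjusted p = 0.221, limma) and Mirlet7g of −0.49 (adjusted p = 0.460, limma), and neither passed. Lin28a and Lin28b did not pass the filter on low signals, and nor did Mirlet7d and Mirlet7f-1, the cluster partners of Mirlet7a-1.

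**Figure D2:**
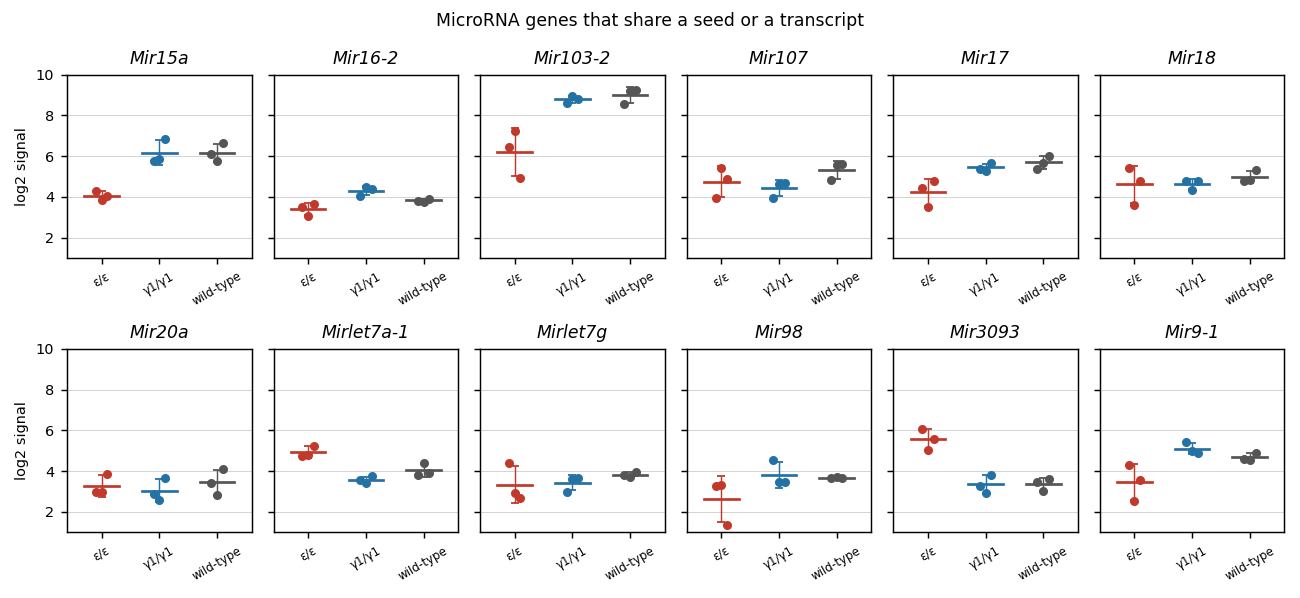
Log2 signal (vertical axis) of 12 microRNA genes that share a seed or a transcript, with each point 1 array, the horizontal bar the mean and the error bar the SD of 3 arrays, for ε/ε, γ1/γ1 and wild-type. Mir15a, Mir103-2 and Mir17 lie lower in ε/ε and Mirlet7a-1 and Mir3093 higher, while the ε/ε arrays of Mir107, Mir18, Mir20a and Mirlet7g overlap the wild-type arrays.

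Mir3093 and Mir9-1 lie 427 bases apart on chromosome 3 in the long non-coding gene Gm3764, and their signals went opposite ways. Mir3093 had log2 signals of 6.06, 5.05 and 5.58 on the ε/ε arrays, 3.27, 2.95 and 3.83 on the γ1/γ1 arrays and 3.45, 3.01 and 3.60 on the wild-type arrays. Its means in γ1/γ1 and wild-type lay below the array medians, so no fold is given for a log2 difference of 2.21 ± 0.29 (SE) from wild-type (adjusted p = 0.00397, limma) and of 2.21 ± 0.29 (SE) from γ1/γ1 (adjusted p = 0.00583, limma). Mir3093 passed the filter on 4 arrays, the 3 ε/ε arrays and γ1/γ1 replicate 3, so it was chosen through the group in which it is bright, and its tests are a description. Without the 2 arrays of low Xist the difference from γ1/γ1 did not pass (adjusted p = 0.0583). Mir9-1, a microRNA known from the nervous system, stood at 4.30, 2.54 and 3.59 in ε/ε, 5.41, 5.01 and 4.88 in γ1/γ1 and 4.58, 4.53 and 4.91 in wild-type. Its difference of −1.62 from γ1/γ1 passed (adjusted p = 0.0480, limma), but in 1 of the 9 fits without 1 array, and that of −1.19 from wild-type did not (adjusted p = 0.0783, limma). The ε/ε mean of Mir9-1 lay below the array medians, so neither difference measures the size of a change. Gm3764 itself did not pass the filter, with 0 arrays above the median.

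Among the other genes that were higher in ε/ε, Mir449b lies in the interval of Cdc20b, where the miR-449 cluster is known from multiciliated cells. Its log2 signal was 11.38, 11.28 and 11.26 on the ε/ε arrays, 10.22, 10.19 and 10.53 on the γ1/γ1 arrays and 10.28, 9.79 and 9.95 on the wild-type arrays. The ε/ε arrays lay close together and above all the others, and Mir449b rose by 1.30 ± 0.16 (SE) from wild-type, a signal 2.46-fold higher (adjusted p = 0.00321, limma), which passed without any 1 array. Its rise of 0.99 from γ1/γ1 (adjusted p = 0.0140, limma) was lost in fits that left out γ1/γ1 replicate 1 or 2, where adjusted p reached 0.0541. This call was also lost without the 2 arrays of low Xist and in a fit of the 6 arrays compared. Mir449a, 115 bases away, had a log2 difference of 0.48 from wild-type that did not pass (adjusted p = 0.258, limma), and Cdc20b did not pass the filter. Mir5112 stood at 6.11, 6.13 and 5.78 in ε/ε, 5.51, 5.16 and 5.47 in γ1/γ1 and 5.02, 4.90 and 4.83 in wild-type, so that γ1/γ1 lay between the others. Its log2 difference of 1.09 from wild-type passed without any 1 array (adjusted p = 0.00521, limma), and that of 0.63 from γ1/γ1 did not pass (adjusted p = 0.0614, limma).

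The remaining 7 higher genes rose by 0.74 to 1.34 on the log2 scale from wild-type, with adjusted p between 0.0148 and 0.0332, and each lost its call in at least 1 fit without 1 array. They were Mir666, Mir99b, Mir1943, Mir5135, Mir1191, Mirlet7a-1 and Mir455, the last of them, in the collagen gene Col27a1, also higher than γ1/γ1 (0.64, adjusted p = 0.0400, limma), a call that held in 1 of the 9 fits without 1 array, with an adjusted p up to 0.104 in the others, and that was lost with array weights and in a fit of those 6 arrays alone. Mir99b had log2 signals of 6.97, 6.36 and 7.44 on the ε/ε arrays, 5.92, 5.92 and 5.59 on the γ1/γ1 arrays and 5.92, 5.02 and 5.92 on the wild-type arrays. Only ε/ε stood apart, above the other 6 arrays, and the γ1/γ1 and wild-type arrays overlapped, with the same deposited value on 4 of them. Its difference of 1.31 from wild-type (adjusted p = 0.0332, limma) passed in 2 of the 9 fits without 1 array.

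Of the 19 lower genes, 12 also passed as lower than γ1/γ1: Mir505, Mir210, Mir149, Mir15a and Mir103-2, described above, and Mir5104, Mir1927, Mir1933, Mir344d-2, Mir34b, Mir672 and Mir139. Mir5104 had log2 signals of 3.95, 4.97 and 4.32 on the ε/ε arrays, 7.95, 6.70 and 5.77 on the γ1/γ1 arrays and 6.63, 7.19 and 7.25 on the wild-type arrays. It lies in Zc3h12d, a relative of the RNase Regnase-1, and fell by 2.61 ± 0.47 (SE) from wild-type (adjusted p = 0.0137, limma) and by 2.40 ± 0.47 (SE) from γ1/γ1 (adjusted p = 0.0303, limma), and both calls were lost in some fits without 1 array, the first without wild-type replicate 2 or 3 with an adjusted p up to 0.0664 and the second in 6 of 9 fits, up to 0.0860. The second was also lost without the 2 arrays of low Xist and in a fit of the 6 arrays compared. Mir1927, in Rabgap1l, stood at 3.65, 4.40 and 5.43 in ε/ε, 7.57, 6.80 and 6.88 in γ1/γ1 and 6.25, 6.36 and 6.34 in wild-type. It fell by 2.59 ± 0.38 (SE) from γ1/γ1 (adjusted p = 0.00879, limma), also without any 1 array but not in a fit of those 6 arrays alone (adjusted p = 0.0577), and by 1.82 ± 0.38 (SE) from wild-type (adjusted p = 0.0221, limma), a call lost in fits that left out ε/ε replicate 2 or any 1 wild-type array, where adjusted p reached 0.0892. The call against wild-type was also lost in a fit of the 6 arrays compared. Mir1933, in Ugp2, fell by 1.49 from wild-type (adjusted p = 0.0149, limma) and by 1.61 from γ1/γ1 (adjusted p = 0.0166, limma). The first call was lost when wild-type replicate 2 or 3 was left out, with an adjusted p up to 0.0665, and the second when γ1/γ1 replicate 1 or 2 was, up to 0.0667. The second was also lost without the 2 arrays of low Xist and in a fit of the 6 arrays compared.

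Mir5128, Mir5120 and Mir3070b passed against wild-type alone of the comparisons made, with log2 differences of −1.99 (adjusted p = 0.0178), −1.45 (adjusted p = 0.0337) and −1.41 (adjusted p = 0.0452) in limma. They kept the call in 5, 4 and 1 of the 9 fits without 1 array. Mir3070b had log2 signals of 2.67, 2.61 and 2.91 on the ε/ε arrays, all below the array medians. It passed the filter on 4 arrays, all of them γ1/γ1 or wild-type. Mir3070b was thus chosen through the groups in which it is bright, so its test is a description. Mir5120 lies in Pax5, the transcription factor that keeps B cell identity, and had log2 signals of 5.49, 5.21 and 6.53 on the ε/ε arrays, 6.16, 6.85 and 6.57 on the γ1/γ1 arrays and 6.73, 7.48 and 7.36 on the wild-type arrays. The γ1/γ1 arrays overlapped both other groups. The other 7 lower genes, which include Mir344d-2, Mir139, Mir672 and Mir34b, fell by 0.72 to 1.33 from wild-type, with adjusted p between 0.0216 and 0.0477, and each lost its call in 3 to 7 of the 9 fits without 1 array. Against γ1/γ1 the differences were −1.42 for Mir344d-2 (adjusted p = 0.0222), −0.85 for Mir34b (adjusted p = 0.0302), −1.16 for Mir672 (adjusted p = 0.0342) and −1.21 for Mir139 (adjusted p = 0.0489) in limma, and these calls held in 7, 2, 1 and 1 of the 9 fits without 1 array. Mir34b, a p53 target in mouse and human cells, stood at 3.45, 2.89 and 3.00 in ε/ε, below the array medians. Its mean was 3.96 in γ1/γ1 and 3.83 in wild-type, and it passed the filter on those 6 arrays alone. Mir34b was thus chosen through the groups in which it is bright, so its tests are a description. Its fitted log2 difference was −0.72 from wild-type (adjusted p = 0.0332, limma). That of Mir34c, 528 bases away, was 0.05 (adjusted p = 0.875, limma). Mir3092, which lies on chromosome 3, passed against γ1/γ1 only, with a log2 difference of −0.84 (adjusted p = 0.0130, limma) and of −0.39 from wild-type (adjusted p = 0.111, limma). The call was lost without γ1/γ1 replicate 3 (adjusted p = 0.0511) and in a fit of those 6 arrays alone.

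**Figure D3:**
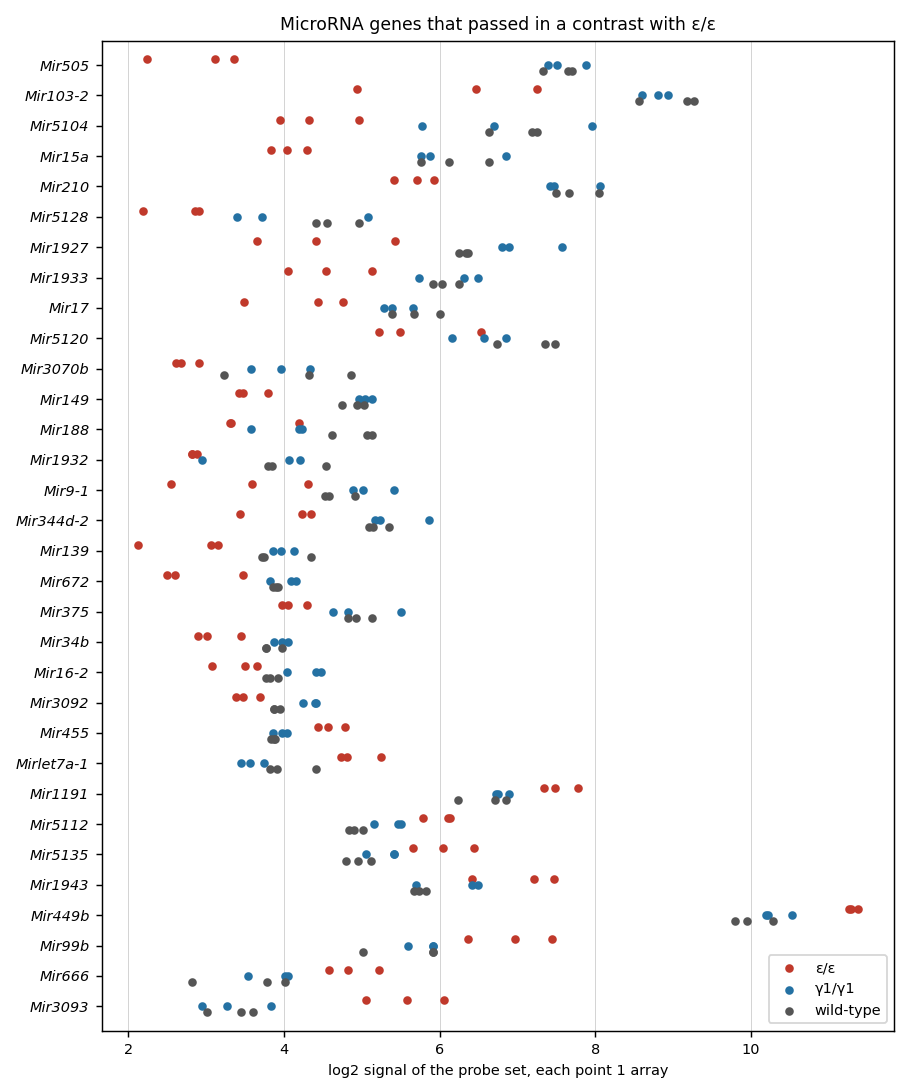
Log2 signal (horizontal axis) of the 32 microRNA genes that passed in ε/ε against wild-type or against γ1/γ1, with each point 1 array and the genes ordered by their difference from wild-type. In Mir505 the ε/ε arrays lie between 2.24 and 3.35 and the other 6 between 7.32 and 7.88, and γ1/γ1 points overlap or neighbour the wild-type points for most genes.

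The 150 genes were then followed by the place in which they lie. Of them, 73 lay within a gene on the same strand, 9 within a gene on the opposite strand, 24 within a gene whose strand relation is not given, and 44 outside protein-coding and long non-coding genes. Against wild-type, 5 higher and 12 lower genes were found among the 73, 0 among the 9, 1 higher and 3 lower among the 24, and 4 higher and 4 lower among the 44. Of all genes tested 2.33% were higher and 4.02% lower, and of the 150 microRNA genes 10 were higher and 19 lower; whether the places differ was not tested. A host gene on the same strand was itself tested for 48 microRNA genes, with 47 different hosts, and 12 of these microRNA genes passed. Of their 12 hosts, 3 passed in the same direction: Dleu2, the host of Mir15a, Rabgap1l, a Rab GTPase-activating protein that hosts Mir1927, and Strbp, an RNA-binding protein that hosts Mir5128.

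Dleu2 had log2 signals of 5.75, 5.63 and 5.17 on the ε/ε arrays, 6.75, 6.15 and 5.89 on the γ1/γ1 arrays and 6.54, 6.70 and 6.27 on the wild-type arrays, and fell by 0.99 from wild-type (adjusted p = 0.0394, limma), in 2 of the 9 fits without 1 array and with an adjusted p up to 0.151 in the others. Rabgap1l fell by 0.93 (adjusted p = 0.0134, limma), a call that was lost when wild-type replicate 2 was left out (adjusted p = 0.0618). Strbp fell by 0.64 (adjusted p = 0.0181, limma) and lost its call whichever wild-type array was left out, with an adjusted p up to 0.0710. The 12 pairs were chosen because the microRNA gene passed, so the sizes of the differences are not compared between microRNA gene and host. Of these 12 pairs 9 had the same sign. The share with the same sign over all 48 pairs was not counted, so whether hosts and microRNA genes moved together was not tested. Pax5, the host of Mir5120, had a difference of 0.37 (adjusted p = 0.337, limma), Zc3h12d, that of Mir5104, of −0.43 (adjusted p = 0.160, limma), and Pde2a, that of Mir139, of 0.45, none of which passed. In the 48 pairs 4 hosts passed, where 6.34% of all genes tested did, and Pank2, the host of Mir103-2, had no probe set of a single symbol. Gpc1, around Mir149, had a difference of 0.05 (adjusted p = 0.883, limma).

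**Figure D4:**
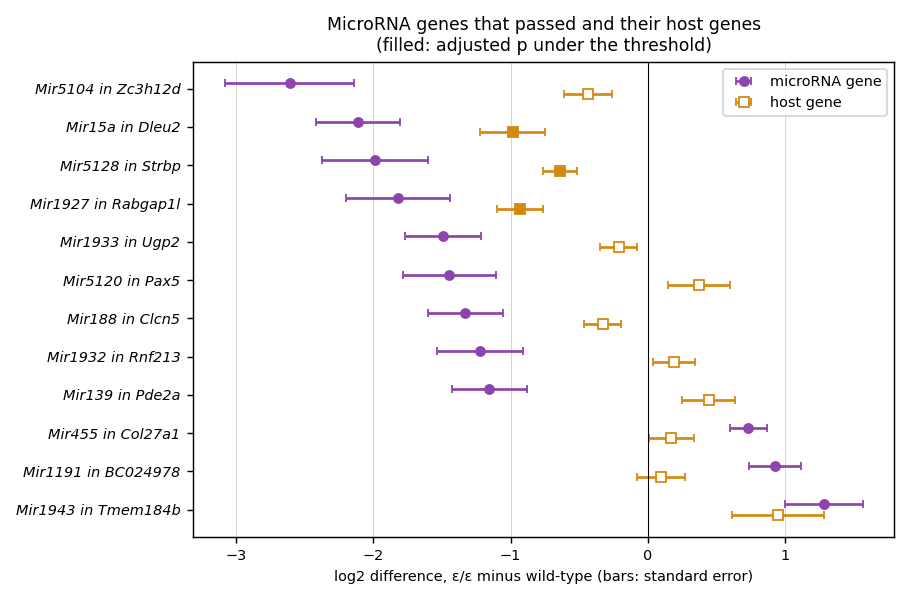
Log2 difference between ε/ε and wild-type (horizontal axis, bars the standard error) of the 12 microRNA genes that passed and that have a tested host gene on the same strand, each with its host gene beneath it. The pairs were chosen because the microRNA gene passed, so its distance from 0 is not compared with that of the host, and 3 hosts are filled as passing.

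By chromosome, 11 of the 150 genes lay on the X chromosome, with 3 lower (Mir505, Mir188 and Mir672), 0 higher and a median log2 difference of −0.61 from wild-type in ε/ε, where 4.02% of all genes tested and 19 of the 150 were lower, and a difference between chromosomes was not tested. Their median in γ1/γ1 was 0.09. In all, 14 genes lay in the imprinted interval between Dlk1 and Dio3 on chromosome 12, where the maternal copy gives long non-coding RNAs with many microRNAs. Mir666 rose by 1.34 from wild-type (adjusted p = 0.0309, limma). Mir3070b, chosen through γ1/γ1 and wild-type arrays alone, had a fitted log2 difference of −1.41. The 14 genes had a median log2 difference of 0.33 in ε/ε and of 0.14 in γ1/γ1. Mir329 stood at 6.03, 6.42 and 6.82 in ε/ε, 5.69, 4.91 and 5.63 in γ1/γ1 and 5.69, 5.57 and 5.22 in wild-type, a difference of 0.93 that did not pass (adjusted p = 0.0610, limma). Where the hairpin was in the sequence table, its GC content had a median of 62.0% in 5 of the 10 higher genes, 47.9% in 17 of the 19 lower genes and 51.9% in 103 genes that did not pass. The ranges overlapped, at 42.6% to 69.0%, 39.3% to 69.1% and 31.2% to 74.8%, and a difference in GC content was not tested.

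Of the 65 microRNA genes with described roles in lymphocytes that the array held under a single symbol, 22 were among the 150, and against wild-type 1 was higher (Mirlet7a-1) and 4 were lower (Mir103-2, Mir15a, Mir17 and Mir210) in ε/ε, with a median difference of −0.40, where 6.34% of all genes tested and 29 of the 150 passed. None passed in γ1/γ1, where 0.0411% of all genes passed, and their median there was −0.13. Mir142, a microRNA of blood cells, had log2 signals of 8.50, 6.51 and 7.24 on the ε/ε arrays, 6.58, 6.56 and 6.28 on the γ1/γ1 arrays and 6.05, 6.14 and 6.06 on the wild-type arrays. The ε/ε arrays lay above the wild-type arrays, and ε/ε replicate 1, which also had the highest macrophage markers, was the brightest. The difference of 1.33 from wild-type did not pass (adjusted p = 0.0688, limma) and was 0.79 without that array (adjusted p = 0.0765), with adjusted p between 0.0165 and 0.179 over the alternatives.

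Mir150, which represses Myb in lymphocytes, ran from 3.61 to 4.37 in ε/ε and from 3.49 to 4.04 in γ1/γ1 and averaged 3.75 ± 0.23 in wild-type (SD, n = 3), with overlapping groups and a difference of 0.26 (adjusted p = 0.512, limma). Mir185, which represses Btk, the kinase below the B cell receptor, had log2 signals of 6.48, 6.60 and 6.61 on the ε/ε arrays, 6.81, 5.97 and 6.63 on the γ1/γ1 arrays and 6.66, 6.29 and 6.87 on the wild-type arrays. The groups overlapped, and the difference of −0.05 did not pass (adjusted p = 0.926, limma). Mir28a, known from germinal centre B cells, had a difference of −1.21 that did not pass (adjusted p = 0.0905, limma). Of 18 microRNA genes that mark other lineages 5 were among the 150. In ε/ε 0 of them passed against wild-type, where 6.34% of all genes tested did. Their log2 differences from wild-type ran between −1.19 for Mir9-1 and 0.70 for Mir9-3. Mir143 had a difference of −0.99 (adjusted p = 0.0702, limma). Mir451a, which marks red cells, had one of −0.28 (adjusted p = 0.236, limma) and Mir124a-2, of neurons, of 0.16 (adjusted p = 0.827, limma). Against γ1/γ1 1 of the 5, Mir9-1, passed as lower, where 1.64% of all genes tested did.

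**Figure D5:**
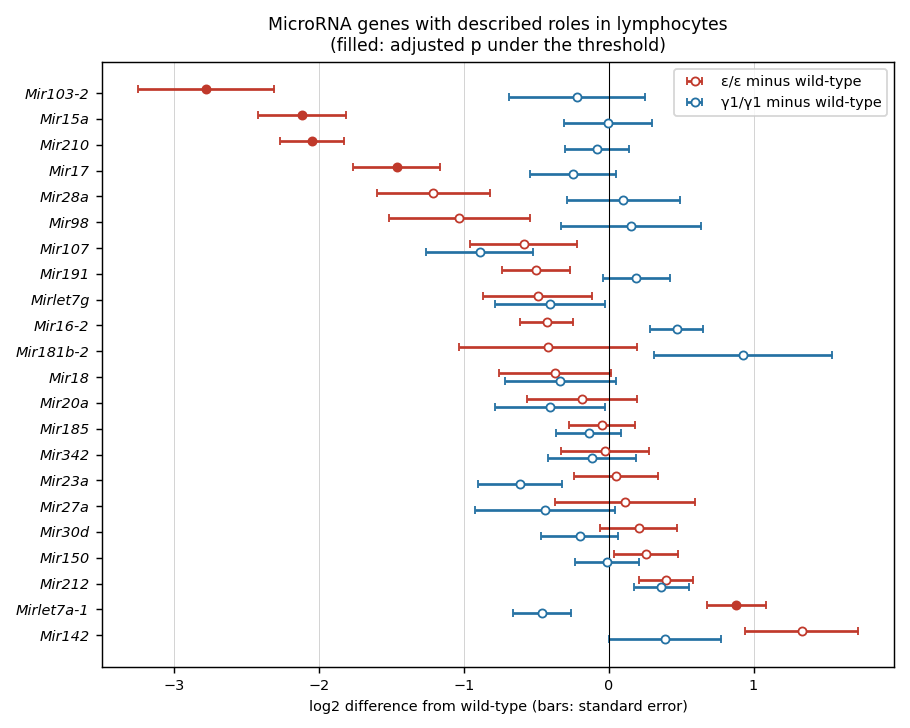
Log2 difference from wild-type (horizontal axis, bars the standard error) of the 22 microRNA genes with described roles in lymphocytes, in ε/ε and in γ1/γ1. Filled points passed, which are Mir103-2, Mir15a, Mir210, Mir17 and Mirlet7a-1 in ε/ε, and the γ1/γ1 points lie between −0.89 and 0.93.

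The 10 genes whose probe sets had the highest mean signal, an order of brightness and not of transcript level, were Mir5099, Mir449b, Mir1195, Mir703, Mir692-1, Mir680-2, Mir103-2, Mir761, Mir5125 and Mir1956, and of these Mir449b and Mir103-2 passed against wild-type in ε/ε. The other 8 had log2 differences between −0.42 and 0.61 there. Mir5099, for which no role is given here, stood at 10.95, 10.67 and 10.93 in ε/ε, 10.35, 10.52 and 10.78 in γ1/γ1 and 10.68, 10.08 and 10.63 in wild-type, and its difference of 0.39 did not pass (adjusted p = 0.246, limma).

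Of 37 genes of microRNA processing and silencing on the array 33 were tested, and against wild-type 1 was higher and 2 were lower in ε/ε, where 6.34% of all genes tested passed. Xrn2, a nuclear 5′ to 3′ exonuclease, had log2 signals of 7.45, 7.75 and 7.90 on the ε/ε arrays, 8.38, 8.38 and 8.49 on the γ1/γ1 arrays and 8.50, 8.66 and 8.48 on the wild-type arrays, and fell by 0.85 from wild-type (adjusted p = 0.0123, limma) and by 0.72 from γ1/γ1 (adjusted p = 0.0352, limma). Xrn1, its cytoplasmic relative, fell by 0.72 from wild-type (adjusted p = 0.0362, limma), and Zc3h12a, the RNase Regnase-1, rose by 0.83 (adjusted p = 0.0475, limma). Of the 9 fits without 1 array, Xrn2 passed against wild-type in 8, Xrn1 in 4 and Zc3h12a in 1, and against γ1/γ1 Xrn2 passed in 1, with an adjusted p up to 0.0969 in the others. Drosha had a difference of 0.39 (adjusted p = 0.111), Dicer1 of −0.22 (adjusted p = 0.458), Xpo5, which exports hairpins, of −0.20 (adjusted p = 0.623) and Ago2 of 0.27 (adjusted p = 0.271), and none of these passed in limma. In ε/ε against γ1/γ1 1 of the 33 passed, where 2.66% of all genes tested did. In γ1/γ1 0 of the 33 passed against wild-type, where 0.0411% of all genes tested did. Smad1 had a difference of −0.39 in that comparison (adjusted p = 0.727, limma).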

How the data were processed

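RNA of sorted splenic follicular B cells was extracted with TRIzol, amplified with a Nugen Ovation PicoWTA kit and labelled with biotin, per the labels' protocols. The authors deposited log2 signals for 41345 probe sets on each of 9 single-colour arrays; the submitters' processing notes name R 3.3.1, while for background correction, normalization and probe summary the method is not given in the sources used here. Precision is limited by the number of arrays. Genes were named from 23521 probe sets with 1 symbol; 1814 with several (136 of them of microRNA genes) and 16010 without a gene here were not used. The array's build is not named, so gene intervals of GRCm38.p6 served only to find containing and neighbouring genes.

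One linear model in limma 3.58.1 (R 4.3.3) held all 9 arrays, with a mean for each genotype, no covariate and 6 residual degrees of freedom, moderated by eBayes. Every adjusted p comes from it, with Benjamini-Hochberg adjustment across 12170 genes. The members, gene lists and alternatives were chosen with earlier results of these data known. The text names each gene that passed in a comparison, up to the 12 highest and 12 lowest, with the 10 brightest. It also names the tested microRNA genes of other lineages, and a part of the lymphocyte and processing lists. Of the lymphocyte list, Mir181b-2, Mir191, Mir212, Mir23a, Mir27a, Mir30d and Mir342 have their values only in the plot of that list. The values in the text for members of these lists that did not pass are thus a selection. Mir188, Mir329, Mir34c and Mir449a lie outside these groups and were chosen after their values were seen. The model was tested on simulated data. The check of replicate numbers gave correlations between −0.09 and 0.16, so they were not treated as pairs. The plots used matplotlib 3.10.9 (Python 3.11.15).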

Additional observations from a re-analysis of the deposited data

How the results depend on the processing

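Results were recomputed with 2 other scalings, 3 other filters, averaged probe sets, array weights, another variance model, a fit restricted to the 6 arrays of a comparison, a block for the replicate number, single arrays left out, removal of the 2 arrays with low Xist and 2 other thresholds. For ε/ε against wild-type, 29 genes passed, against 15 with the 6 arrays compared and 49 at an adjusted p under 0.1. Leaving out 1 array gave 9 to 30, with 18 without wild-type replicate 1 and 9 without replicate 2 or 3. For ε/ε against γ1/γ1, 19 passed, against 6 with the 6 arrays compared, 34 at an adjusted p under 0.1 and 7 without the arrays of low Xist, which are ε/ε replicate 1 and γ1/γ1 replicate 1. Leaving out 1 array gave 9 to 20, with 9 without γ1/γ1 replicate 1, 10 without γ1/γ1 replicate 2 or 3 and 12 without wild-type replicate 3. The fits without arrays hold fewer samples, and no other cause was tested. For γ1/γ1 against wild-type 0 microRNA genes passed under each alternative. Without the arrays of low Xist 23 genes passed against wild-type, 16 of them among the 29. With the replicate number as a block 33 genes passed against wild-type (28 of the 29 kept), 16 against γ1/γ1 and 0 for γ1/γ1 against wild-type, and since the numbers share no stated source this is no paired result. The genes that passed without any 1 array were Mir149, Mir15a, Mir210, Mir3093, Mir449b, Mir505 and Mir5112 against wild-type, and Mir149, Mir15a, Mir1927, Mir210, Mir3093, Mir505 and Mirlet7a-1 against γ1/γ1. These fits kept the filter made on all 9 arrays. Mir3093 and Mir505 entered through the groups in which they are bright, so their passes remain descriptions, and Mir505 was known from earlier results. Among the named genes, no difference that passed changed sign under these alternatives.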
